A study of Mus musculus with 5 samples.

Results

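The EGF family ligands are 7 genes, Epgn, Areg, Ereg, Hbegf, Btc, Tgfa and Egf, chosen by symbol among the 56691 mouse gene IDs of a count table of RNA sequencing. All 7 were found in the table, and all 7 were among the 18583 genes with enough reads to be tested. RNA came from back skin of mice at day 28, from 2 groups of libraries. The GFP-sorted group (replicates 1, 2 and 3) consists of cells sorted on GFP, labelled Lrig1 positive keratinocytes and epidermal stem cells, with a genotype given only as Lrig1 positive. The bulk group (replicates 1 and 2) is labelled bulk, wild-type basal keratinocytes. The sources used here do not give the reporter behind GFP, the gates, the strain or the number of animals per library, so p-values measure the spread between these libraries, which may be technical.

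Ligands of this family are made as membrane proteins, are cut loose by ADAM metalloproteases, and bind the EGF receptor (EGFR) on the same or a neighbouring cell. Epgn, Areg, Tgfa and Egf encode ligands of EGFR, while Hbegf, Btc and Ereg encode ligands of both EGFR and ErbB4. In skin, EGFR drives division and migration of keratinocytes and restrains their terminal differentiation. Lrig1, the gene named in the sorted cells' label, encodes a membrane protein that lowers the amount of EGFR at the cell surface.

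Libraries held 85307002, 71410484 and 89080100 counts in GFP-sorted replicates 1, 2 and 3, and 56829330 and 105887450 counts in bulk replicates 1 and 2. GFP-sorted replicate 3 stood apart by sex-linked genes, with 53714 Xist counts and 62 Ddx3y counts, against 0 to 8 Xist and 1750 to 4462 Ddx3y counts in the other libraries. No bulk library had this female pattern. Lrig1 was at 210, 226 and 213 CPM (counts scaled to a common library size with TMM factors) in GFP-sorted libraries and 163 and 155 CPM in bulk libraries. As a check of the labels, Lrig1 was higher in each sorted library than in either bulk library, but its log2 difference of 0.44 ± 0.18 did not pass (edgeR adjusted p = 0.292). Markers of other cells were present in the bulk group. The 12 hair matrix and inner root sheath genes, all called lower, summed to 63.4 to 72.4 CPM (library size scaling, as for the sums below) in sorted libraries and 1619 to 3080 CPM in bulk libraries.

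Epgn, Ereg, Areg and Btc are consecutive coding genes on mouse chromosome 5, in that order (RefSeq, GRCm38.p6). The promoters of Epgn and Areg are shown because these 2 neighbours had higher means in sorted cells while Ereg, which lies between them, was lower. Promoters of 5 of the 7 members were matched in RefSeq, those of Epgn, Areg, Btc, Tgfa and Egf. Each sequence is the 250 bases before the annotated start, on the plus strand of GRCm38.p6. Capitals mark TATAAA (the letters of a TATA box) and TGACGTCA (the letters of a cAMP response element).
Epgn, chr5:91027267-91027516: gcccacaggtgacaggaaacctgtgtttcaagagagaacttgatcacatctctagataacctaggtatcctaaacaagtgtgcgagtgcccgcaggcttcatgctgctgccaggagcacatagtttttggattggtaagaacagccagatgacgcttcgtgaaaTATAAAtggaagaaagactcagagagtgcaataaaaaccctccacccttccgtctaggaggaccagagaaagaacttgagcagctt
Areg, chr5:91139349-91139598: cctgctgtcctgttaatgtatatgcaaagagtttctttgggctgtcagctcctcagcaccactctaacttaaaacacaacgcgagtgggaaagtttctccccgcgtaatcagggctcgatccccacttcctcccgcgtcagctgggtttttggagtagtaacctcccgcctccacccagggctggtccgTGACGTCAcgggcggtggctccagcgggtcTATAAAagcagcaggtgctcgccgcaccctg

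Both strands were searched for these motifs and for the AP-1 motif TGANTCA, and no match of one motif overlapped another. TATAAA was found in the Epgn window, from position -86 relative to the start, and in the Areg window, from position -31. TGACGTCA was found in the Areg window alone among the matched members, from position -61. Of 32851 promoter windows of this length, 12.4% hold TATAAA, 1.55% hold TGACGTCA and 6.75% hold TGANTCA, which was in none of the members' windows. A match describes these letters and is not evidence of binding.

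Sorted cells carried about 3.16 times as much Epgn RNA and about 11.7 times less Ereg RNA than the bulk population, while the other 5 ligands did not pass the test. Epgn was therefore called higher and Ereg lower, at an adjusted p under 0.05 in edgeR. Among all 18583 genes tested, 0.145% were called higher (27 genes) and 5.14% lower (955 genes), together 5.28%. An unadjusted p under 0.05 in edgeR was reached by 2944 of the 18583 genes. With a trend on transcript length and GC content removed, 350 genes were called higher and 847 lower. Of the 18583 genes, limma-voom called 37 higher and 989 lower, and DESeq2 called 188 higher and 1311 lower. The median log2 change of the 7 ligands was 0.11, against 0.05 over all genes tested. For 6 of the 7 ligands the libraries of the groups did not overlap, 4 being higher in the sorted group and 2 lower. Over all genes tested, 14.6% did not overlap and were higher, and 18.5% did not overlap and were lower, together 33%. Non-overlap alone was thus common in these libraries. With the number shared by library titles as a replicate block, 4 of the 7 ligands were called, 3 higher and 1 lower, against 36% of all genes (16.4% higher and 19.7% lower).

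**Figure D1:**
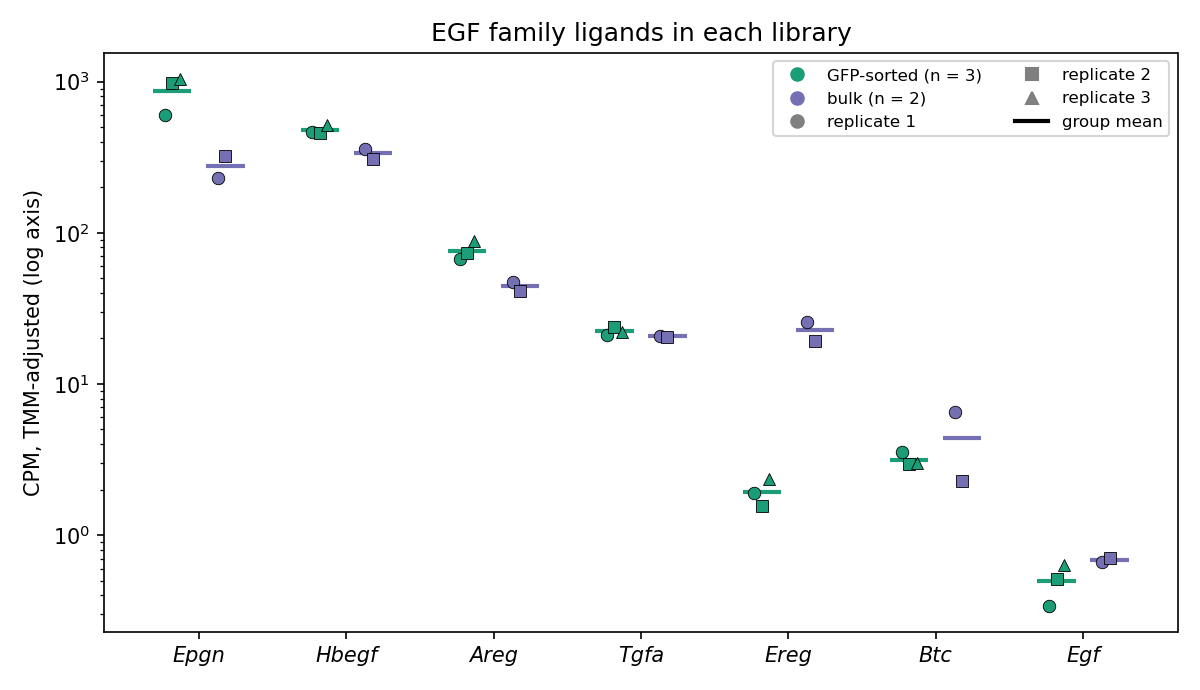
Level of each ligand in each library, as TMM-adjusted CPM on a log axis, with GFP-sorted libraries (n = 3) left of bulk libraries (n = 2), symbols giving the replicate number and lines the group means. Epgn is higher and Ereg lower in all 3 sorted libraries than in both bulk libraries, and bulk replicate 1 stands above the other libraries for Btc.

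Epgn (ENSMUSG00000035020.12) encodes epigen, a ligand of EGFR whose overproduction in mouse skin enlarges sebaceous glands. It was at 604, 977 and 1035 CPM in GFP-sorted replicates 1, 2 and 3, against 230 and 323 CPM in bulk replicates 1 and 2. The lowest sorted library, replicate 1, lay well above the highest bulk library, and the sorted libraries differed from each other more than the bulk libraries did. The means were 872 ± 234 CPM in sorted cells (SD, n = 3) and 276 ± 65.9 CPM in bulk cells (SD, n = 2). The log2 fold change was 1.66 ± 0.32 (SE, edgeR adjusted p = 0.0231), which is rank 3 in size among the 27 genes called higher. The call was lost without GFP-sorted replicate 2 (edgeR adjusted p = 0.0545), bulk replicate 1 (0.200) or bulk replicate 2 (0.0925), and with a robust length and GC trend removed (log2 change 1.23, adjusted p = 0.182). Without GFP-sorted replicate 3 the log2 change was 1.51 (adjusted p = 0.0293).

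The immediate early and heat shock genes that cell isolation can induce (11 genes) summed to 27407, 37500 and 44384 CPM in GFP-sorted replicates 1, 2 and 3, and to 25506 and 33835 CPM in bulk replicates 1 and 2. Within each group this sum was higher in the libraries with more Epgn, and its part in the Epgn result was not tested. The single genes did not all follow the sum. In TMM-adjusted CPM, Fos and Fosb alone kept the order of Epgn in both groups. Hspa1a, Hspa1b and Ier3 were lowest in GFP-sorted replicate 3, where Epgn was highest. These genes are named after their values were seen. None of the 11 genes was called by edgeR or limma-voom, 1 was called higher by DESeq2 (Junb, named after its values were seen), and 1 had an unadjusted p under 0.05 in edgeR. None was at 0 in every library. Their median log2 change was 0.34.

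Ereg (ENSMUSG00000029377.6) encodes epiregulin, a ligand of EGFR and ErbB4 that keratinocytes can make in an autocrine manner. It had 150, 103 and 219 counts in GFP-sorted replicates 1, 2 and 3, and 1547 and 2155 counts in bulk replicates 1 and 2. These are 1.90, 1.55 and 2.34 CPM in the sorted libraries, against 25.9 and 19.3 CPM in the bulk libraries. The groups were far apart, the highest sorted library being GFP-sorted replicate 3. The means were 1.93 ± 0.397 CPM in sorted cells (n = 3) and 22.6 ± 4.61 CPM in bulk cells (n = 2), and the log2 fold change was -3.54 ± 0.27 (edgeR adjusted p = 3.66e-04). Ereg was called lower in all 19 other settings run, with log2 changes from -3.75 to -3.32. In size it was rank 446 among the 955 genes called lower. In bulk tissue, fewer cells of a type and less RNA per cell cannot be told apart.

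Markers of several other cell types were lower in sorted cells together with Ereg, and their part in its fall was not tested. The 9 suprabasal genes, of which 5 were called lower, summed to 7975 to 11206 CPM in sorted libraries and 17859 to 22887 CPM in bulk libraries. Genes of immune and pigment cells were nearer to absence in sorted cells. The 8 myeloid and Langerhans cell genes, all called lower, summed to 20.1 to 42.4 CPM in sorted libraries and 315 to 319 CPM in bulk libraries. The 7 melanocyte genes, all called lower, summed to 4.59 to 10.2 CPM in sorted libraries and 121 to 296 CPM in bulk libraries. Of the 6 T cell genes, the 5 called lower (Cd3d, Cd3e, Cd3g, Cd7 and Trdc) summed to 12.4, 7.94 and 11.5 CPM in sorted libraries and 137 and 112 CPM in bulk libraries, with log2 changes from -3.71 to -3.12. Thy1, which was not called and is named after its values were seen, made up most of the sum of all 6 in sorted cells, which was 166 to 216 CPM in sorted libraries and 260 to 269 CPM in bulk libraries. Sebaceous genes were lower in part. The 8 sebaceous genes, of which 4 were called lower, summed to 469 to 664 CPM in sorted libraries and 1080 to 1268 CPM in bulk libraries. Blood and dermal cells were also represented in the bulk libraries, and GFP-sorted replicate 1 held more fibroblast RNA than the other sorted libraries. The 5 red cell genes, all called lower, summed to 1.30 to 7.39 CPM in sorted libraries and 204 to 213 CPM in bulk libraries. The 6 fibroblast genes, of which 2 were called lower, summed to 10.01 to 156 CPM in sorted libraries and 161 to 206 CPM in bulk libraries. The 5 endothelial genes, of which 2 were called lower, summed to 0.532 to 1.17 CPM in sorted libraries and 3.15 to 3.68 CPM in bulk libraries. Basal genes, the label of the bulk cells, had the opposite order. The 7 basal layer genes, of which edgeR and limma-voom called none, DESeq2 called 2 higher and 2 had an unadjusted p under 0.05, summed to 28228 to 32987 CPM in sorted libraries and 19052 to 21796 CPM in bulk libraries. No gene of these lists was at 0 in every library.

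Areg (ENSMUSG00000029378.6) encodes amphiregulin, an EGFR ligand that causes epidermal thickening when overproduced in mouse basal keratinocytes. It was at 66.9, 72.9 and 88.0 CPM in GFP-sorted replicates 1, 2 and 3, against 47.5 and 41.4 CPM in bulk replicates 1 and 2. The groups did not overlap, and as for Epgn the highest library was GFP-sorted replicate 3. The means were 76.0 ± 10.9 CPM in sorted cells (n = 3) and 44.4 ± 4.34 CPM in bulk cells (n = 2). The log2 difference of 0.77 ± 0.20 did not pass (edgeR adjusted p = 0.0751). It passed in the DESeq2 Wald test (adjusted p = 0.015), with no filter on low counts (edgeR, 0.0302) and with the length and GC trend of all genes removed (edgeR, 0.0415), but not with the robust trend removed (log2 difference 0.47, edgeR adjusted p = 0.476). With the replicate block it passed alone (edgeR adjusted p = 4.07e-05) and with the trend of all genes removed (4.37e-05), but not with the robust trend removed (log2 difference 0.15, adjusted p = 0.385).

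Hbegf (ENSMUSG00000024486.7) encodes heparin-binding EGF-like growth factor, which promotes keratinocyte migration in wounds, and lies outside the cluster on chromosome 18. It was at 465, 460 and 517 CPM in GFP-sorted replicates 1, 2 and 3, against 360 and 310 CPM in bulk replicates 1 and 2. The spread among sorted libraries was narrow and the groups did not overlap. The means were 481 ± 31.8 CPM in sorted cells (n = 3) and 335 ± 35.4 CPM in bulk cells (n = 2). The log2 difference of 0.52 ± 0.21 did not pass (edgeR adjusted p = 0.276).

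Tgfa (ENSMUSG00000029999.15) encodes transforming growth factor alpha, whose loss in mice gives wavy hair and whiskers. It was at 21.1, 23.8 and 22.2 CPM in GFP-sorted replicates 1, 2 and 3, against 20.8 and 20.6 CPM in bulk replicates 1 and 2. Of the 7 ligands it had the smallest difference, 0.11 ± 0.18 on the log2 scale (edgeR adjusted p = 0.82). The sorted libraries lay just above the bulk libraries under TMM scaling, but with library size alone the groups overlapped and the log2 difference was -0.01.

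Btc and Egf were the least abundant ligands in CPM, apart from Ereg in sorted cells. Btc (ENSMUSG00000082361.7), which encodes betacellulin, was at 3.53, 2.94 and 2.99 CPM in GFP-sorted replicates 1, 2 and 3, against 6.50 and 2.28 CPM in bulk replicates 1 and 2. The bulk libraries lay on both sides of the sorted ones, so the log2 difference of -0.47 ± 0.43 (edgeR adjusted p = 0.651) turned to 0.47 without bulk replicate 1. Egf (ENSMUSG00000028017.8), the founding member of the family, had 27, 34 and 59 counts in GFP-sorted replicates 1, 2 and 3, and 40 and 79 counts in bulk replicates 1 and 2. These are 0.342 to 0.632 CPM in sorted libraries and 0.668 and 0.708 CPM in bulk libraries, a log2 difference of -0.47 ± 0.43 (edgeR adjusted p = 0.654).

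**Figure D2:**
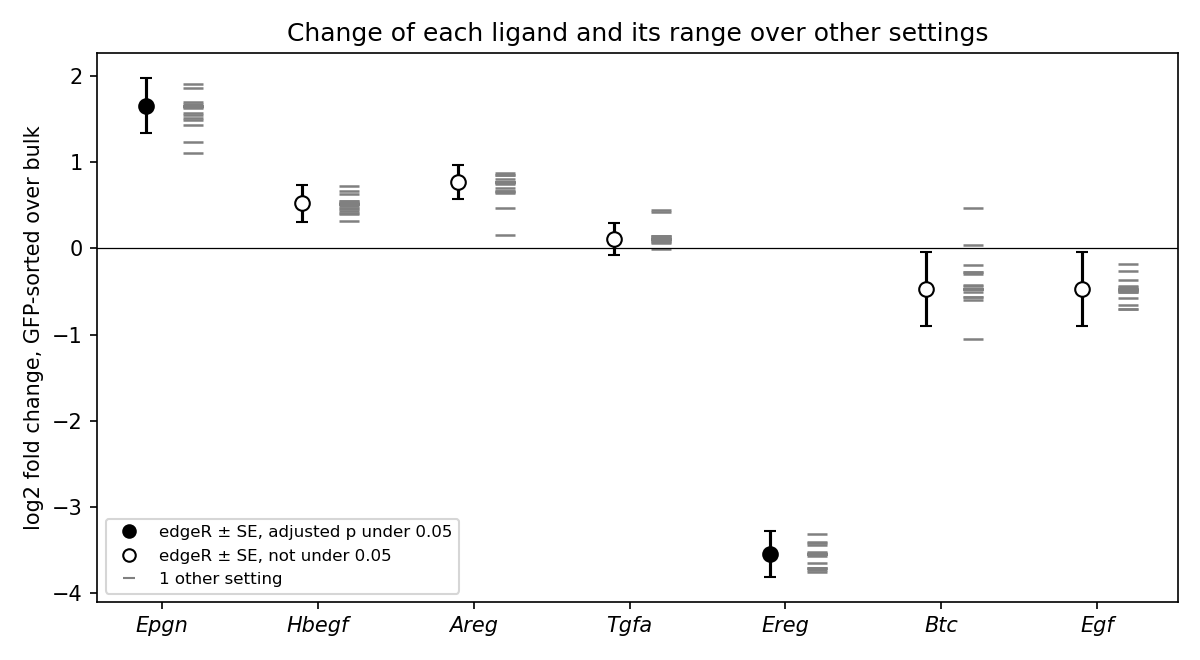
Log2 fold change of each ligand, GFP-sorted over bulk, as edgeR estimate ± SE (circles, filled where the adjusted p is under 0.05) with the estimates of the other settings run as grey ticks. Ereg keeps values from -3.75 to -3.32, Epgn stays above 0 with a lowest value of 1.11, and Btc and Tgfa cross 0.

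Ligands were compared with each other per kilobase of their longest annotated transcript (GENCODE M21), since longer transcripts give more reads. Epgn ranked first in every library, at 343, 555 and 588 CPM per kilobase in GFP-sorted replicates 1, 2 and 3 and 131 and 183 CPM per kilobase in bulk replicates 1 and 2. Among the 18107 tested genes with a known length, it ranked 107 to 221 from the top in sorted libraries and 283 to 390 in bulk libraries. Hbegf followed, at 166 ± 11.0 CPM per kilobase in sorted cells and 116 ± 12.2 in bulk cells, and was close to Epgn in bulk replicate 1 (125 against 131 CPM per kilobase).

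Areg came next, at 62.5 ± 8.94 CPM per kilobase in sorted cells and 36.6 ± 3.57 in bulk cells. The place after Areg differed between the groups. In sorted cells it was held by Tgfa (4.94 ± 0.294 CPM per kilobase), with Btc (0.783 ± 0.0817) and Ereg (0.468 ± 0.0962) below it. In bulk cells it was held by Ereg, at 6.26 and 4.68 CPM per kilobase in replicates 1 and 2, but within its spread of Tgfa, at 4.596 and 4.55. Egf was last in both groups, at 0.104 ± 0.0306 CPM per kilobase in sorted cells and 0.145 ± 0.00595 in bulk cells.

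The family as a whole took 0.108, 0.143 and 0.175% of all counts in GFP-sorted replicates 1, 2 and 3, against 0.0728 and 0.0755% in bulk replicates 1 and 2. Summed per kilobase it reached 565, 781 and 846 CPM per kilobase in the sorted libraries and 307 and 335 in the bulk libraries. Leaving Epgn out, the sums were 222, 226 and 258 CPM per kilobase in the sorted libraries and 176 and 151 in the bulk libraries. The family sum was 2.28 times higher in sorted cells with Epgn and 1.44 times higher without it. As a sum over chosen members it was not tested.

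Epgn made up 51.9% of the family's counts in GFP-sorted replicate 1 (95% Wilson interval 51.6 to 52.3), 63.5% in replicate 2 (63.2 to 63.8) and 62.0% in replicate 3 (61.8 to 62.3). In bulk replicates 1 and 2 it made up 33.3% (32.8 to 33.7) and 45.0% (44.7 to 45.4). These intervals cover counting error only. Hbegf made up 33.6 ± 5.53% of the counts in sorted cells and 47.6 ± 6.27% in bulk cells, and was the most counted ligand in bulk replicate 1 (52.1%, interval 51.6 to 52.6). Ereg made up 0.135 ± 0.0316% of the counts in sorted cells and 3.22 ± 0.74% in bulk cells.

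Per kilobase, Epgn held 67.1 ± 5.60% of the family sum in sorted cells and 48.7 ± 8.67% in bulk cells. Hbegf held 23.3 ± 4.45% in sorted cells and 36.3 ± 6.05% in bulk cells. The ligands that bind EGFR alone held 71.3, 79.5 and 78.7% in GFP-sorted replicates 1, 2 and 3, and 56.8 and 66.4% in bulk replicates 1 and 2. The 4 genes of the chromosome 5 cluster held 76.0 ± 4.57% in sorted cells and 62.2 ± 6.15% in bulk cells. Epgn is in both of these sets, and each other gene in them had a lower mean share in sorted than in bulk cells. In sorted against bulk cells, Tgfa held 0.692 against 1.43%, Ereg 0.0656 against 1.72%, Btc 0.112 against 0.348% and Egf 0.0141 against 0.0451%. The share of Areg was 8.67 ± 1.04% in sorted cells and 11.5 ± 1.82% in bulk cells, so that its share was lower in sorted cells although its CPM was higher.

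**Figure D3:**
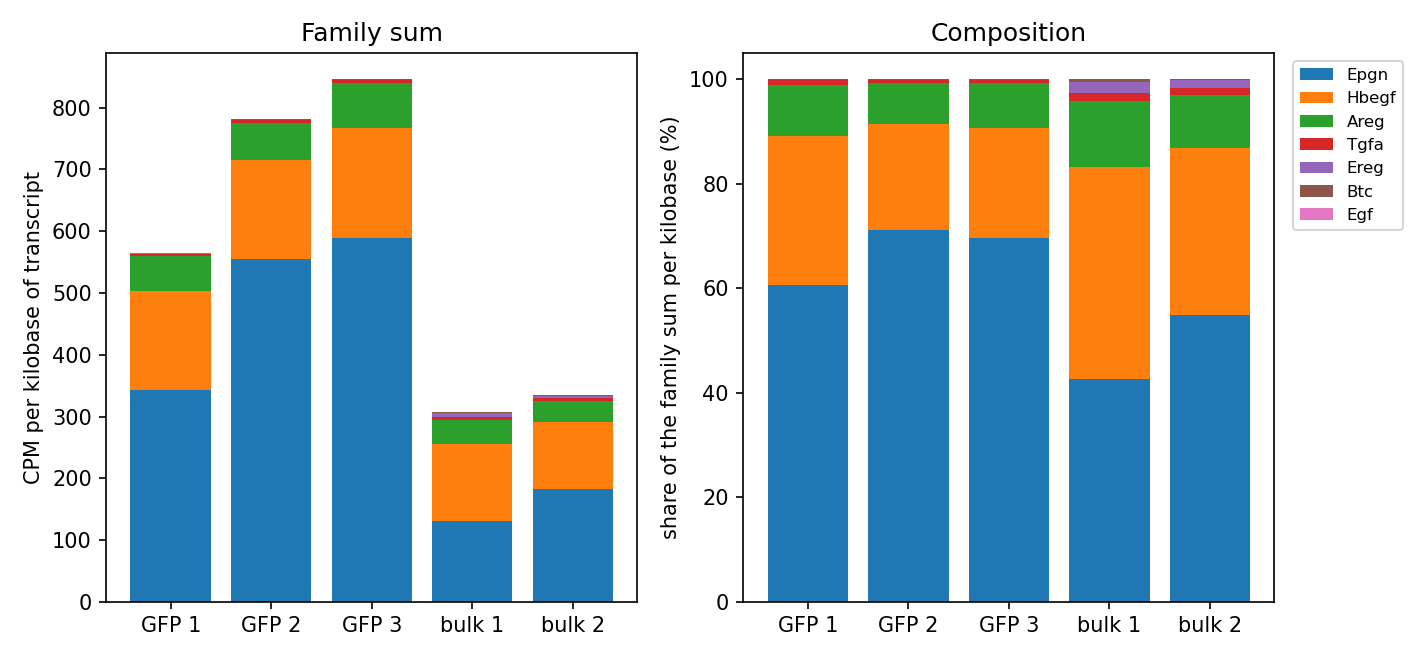
Left, stacked CPM per kilobase of the 7 ligands in each library. Right, each ligand's share of that sum in percent, with GFP-sorted libraries left of bulk libraries. The sums are 565 to 846 CPM per kilobase in sorted libraries and 307 to 335 in bulk libraries, and Epgn is the largest part in every library.

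A ratio of 2 ligands within 1 library does not depend on how libraries are scaled. It can still carry trends with transcript length that differ between libraries, and these were not removed. The transcripts of Epgn, Areg and Ereg are 1760, 1215 and 4128 bases long, and the part of length in the ratios was not tested. For each count of Ereg, sorted libraries 1, 2 and 3 held 317, 626 and 440 counts of Epgn, against 8.89 and 16.7 counts in bulk libraries 1 and 2. The log2 ratio was 8.79 ± 0.491 in sorted cells (SD) and 3.61 ± 0.644 in bulk cells, a difference of 5.19 (exact permutation test, two-sided, p = 0.1). Counts of Areg per count of Ereg were 35.1, 46.7 and 37.5 in sorted libraries and 1.84 and 2.14 in bulk libraries, a log2 difference of 4.32. Counts of Epgn per count of Hbegf were 1.30, 2.12 and 2.001 in sorted libraries and 0.639 and 1.04 in bulk libraries, a log2 difference of 1.12. Epgn also differed from its cluster neighbour Areg, with 9.02, 13.4 and 11.8 counts per Areg count in sorted libraries and 4.84 and 7.80 in bulk libraries, a log2 difference of 0.87.

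The other ratios compared were Hbegf over Ereg and Tgfa over Epgn, with log2 differences of 4.07 and -1.53. Each of the 6 ratios holds Epgn or Ereg, the 2 ligands called, so they are not independent and in part restate those differences. The share of other gene pairs without overlap was not computed, and for single genes it was 33%. In each of the 6 ratios the groups did not overlap. Each had p = 0.1 in the exact permutation test, which is the smallest that 10 assignments of 3 and 2 libraries allow, and 0.1 after Benjamini-Hochberg adjustment over the 6, so none could pass the threshold of 0.05.

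Along chromosome 5 the cluster is flanked by Mthfd2l, a mitochondrial folate enzyme gene, and Parm1, a mucin-like membrane protein gene. Mthfd2l was at 9.89, 8.37 and 7.11 CPM in GFP-sorted replicates 1, 2 and 3, against 7.70 and 5.37 CPM in bulk replicates 1 and 2 (log2 difference 0.37 ± 0.27, edgeR adjusted p = 0.568). Parm1 was at 14.6, 15.3 and 12.9 CPM in sorted libraries, against 12.6 and 14.6 CPM in bulk libraries (0.07 ± 0.21, edgeR adjusted p = 0.900). Neither flanking gene passed, and both had overlapping groups. Ereg overlaps an annotated gene on the opposite strand, Gm19610, which had 2, 3 and 5 counts in sorted libraries and 4 and 9 in bulk libraries. Outside the cluster, Tgfa overlaps Gm43917 on the opposite strand (4, 10 and 20 counts in sorted libraries, 4 and 14 in bulk libraries). Egf overlaps annotated genes on both strands, which had 0 or 1 count per library where counted. As strand use in counting is not stated, reads of such overlapping genes cannot be told apart.

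**Figure D4:**
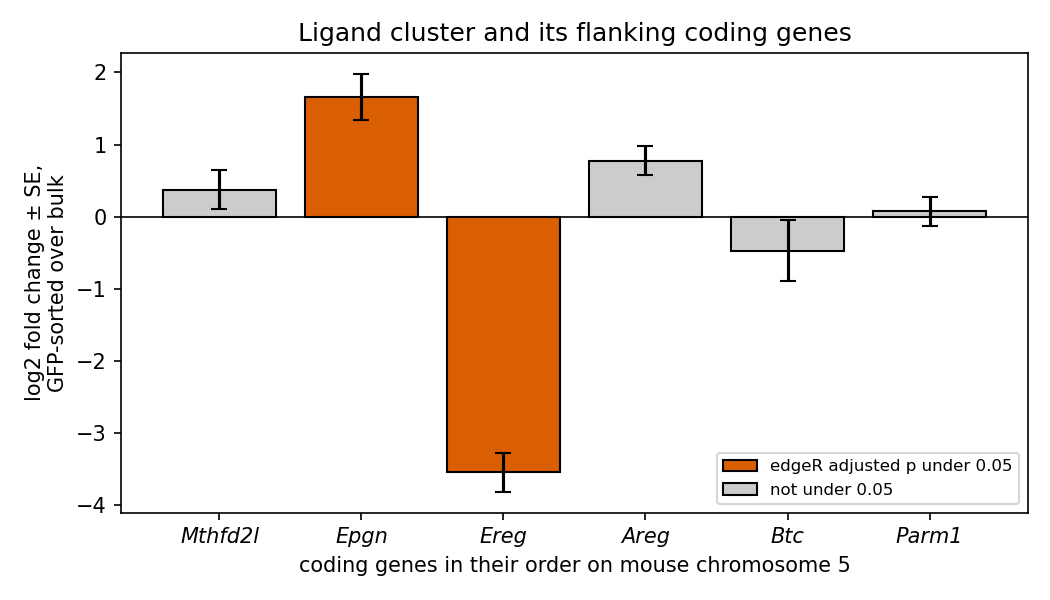
Log2 fold change ± SE, GFP-sorted over bulk, of the 4 clustered ligands and the coding gene on either side, in their order on mouse chromosome 5. Epgn (1.66) and Ereg (-3.54), which are adjacent, are the bars past the threshold, in opposite directions.

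Genes with the pattern most like each ligand were found by the root mean square difference of log2 CPM, each gene centred on its own mean, over the 5 libraries and 8947 candidate genes. For Epgn these included Krt16 (0.312) and Ch25h (0.317). Krt16, a keratin of stressed epidermis, was at 818, 959 and 858 CPM in sorted libraries and 325 and 445 CPM in bulk libraries, with less spread among the sorted libraries than Epgn. Ch25h, which encodes cholesterol 25-hydroxylase, was at 11.5, 16.2 and 14.2 CPM in sorted libraries and 6.13 and 6.42 CPM in bulk libraries.

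For Ereg the nearest genes were Lypd5 (0.207), Itgae (0.215) and Fcho1 (0.221). Itgae, the alpha chain of the integrin CD103 found on T cells and dendritic cells of epithelia, was at 1.77, 1.43 and 1.85 CPM in sorted libraries and 21.0 and 23.3 CPM in bulk libraries. Lypd5, a gene of the Ly6 family, was at 3.19, 3.63 and 3.62 CPM in sorted libraries and 51.9 and 35.7 CPM in bulk libraries. For Areg they were Galnt3 (0.0685), Prss23 (0.0754) and Cpne2 (0.0799). The nearest were Timm9, Nup54 and Slc6a2 for Hbegf, Mocs2, Skint4 and Ift20 for Btc, Dcp1b, Prkci and Pias1 for Tgfa, and Cttnbp2, Unc13b and Ptprj for Egf.

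The genes of the pathway beyond the ligands were counted by the same test. In 6 lists with 60 genes between ligand and target, 58 were tested, none was called higher and 1, Spry4, was called lower by edgeR, with 3 higher and 6 lower at an unadjusted p under 0.05. The shares over all genes tested that edgeR called were 0.145% higher and 5.14% lower. At an unadjusted p under 0.05, in either direction, there were 2944 of all 18583 genes tested. Among the 58 pathway genes, limma-voom called 0 higher and 2 lower, and DESeq2 called 1 higher and 2 lower. Over all 18583 genes, limma-voom called 37 higher and 989 lower, and DESeq2 called 188 higher and 1311 lower. Of the 4 neuregulin genes, ligands of ErbB3 and ErbB4, 3 were tested and none was called by edgeR, limma-voom or DESeq2, with 0 at an unadjusted p under 0.05 in edgeR and a median log2 change of 0.21. Nrg1 was at 3.27, 2.77 and 3.22 CPM in sorted libraries and 2.22 and 1.90 CPM in bulk libraries (edgeR adjusted p = 0.389). Nrg2 and Nrg4 had log2 differences of 0.21 and -0.59.

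Of the 4 receptor genes, 3 were tested and none was called by edgeR, limma-voom or DESeq2, with 1 at an unadjusted p under 0.05 in edgeR. Egfr was at 139, 177 and 183 CPM in sorted libraries and 153 and 178 CPM in bulk libraries, a log2 difference of 0.01 ± 0.21 (edgeR adjusted p = 0.994). Erbb2, the co-receptor with no ligand of its own, was at 172 ± 14.7 CPM in sorted cells and 233 ± 18.04 CPM in bulk cells (log2 difference -0.44, edgeR adjusted p = 0.311). Erbb3 had a log2 difference of -0.18. Erbb4, the second receptor of Hbegf, Btc and Ereg, had 5, 0 and 1 counts in sorted libraries and 3 and 4 counts in bulk libraries.

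Among 11 genes of ligand release, none was called by edgeR or DESeq2 and 1, Adam12, was called lower by limma-voom, with 2 at an unadjusted p under 0.05 in edgeR. The shedding protease gene Adam17 was at 45.7, 45.6 and 75.6 CPM in sorted libraries and 69.6 and 65.6 CPM in bulk libraries, and was named after its values were seen. The log2 differences of Adam12, Adam19 and Rhbdf2 were -4.13, -1.54 and -0.28, with Adam12 at 0.332 CPM or less in every library (edgeR adjusted p = 0.0683). Among 10 genes that restrain the receptor, none was called by edgeR, limma-voom or DESeq2, with 2 at an unadjusted p under 0.05 in edgeR, and Cbl and Cblb, which mark the receptor for breakdown, had log2 differences of -0.71 and 0.23. Among 15 genes of the Ras and ERK core none was called by edgeR or limma-voom and DESeq2 called Braf lower, with 1 at an unadjusted p under 0.05 in edgeR, and Braf, Gab1 and Map2k1 having the smallest p (log2 differences -1.11, -0.39 and 0.33).

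Among 16 early targets and feedback genes of ERK, Spry4, an inhibitor of the pathway, fell to 1.24, 0.859 and 0.974 CPM in sorted libraries, against 2.97 and 4.03 CPM in bulk libraries (log2 change -1.77 ± 0.33, edgeR adjusted p = 0.0197). Spry4 was not called without GFP-sorted replicate 2 (0.0738), bulk replicate 1 (0.0658) or bulk replicate 2 (0.223). Phlda1 and Fosl1 had log2 differences of 0.76 and 0.59 that did not pass (edgeR adjusted p = 0.0733 and 0.308). The list's median was 0.31, against 0.05 over all genes. The list shares Fos, Egr1 and Ier3 with the 11 stress genes, whose median was 0.34.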

How the data were processed

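Values deposited by the authors are whole-number counts per versioned Ensembl gene ID, 1 column per library and no normalization. STAR and build GRCm39 were used per the submitters' processing notes. Which tool counted reads, on which annotation and with which strand setting is not given in the sources used here. Symbols and lengths came from GENCODE M21 (GRCm38) by gene ID (52073 of 56691 matched), so no gene coordinates are given on the authors' build. Genes passing filterByExpr (minimum count 10, minimum total 15) were fitted with edgeR 4.0.16 (R 4.3.3), TMM scaling, a group term and the two-sided quasi-likelihood test, with Benjamini-Hochberg adjustment over 18583 genes and a threshold of 0.05. This left 3 residual degrees of freedom. Alternatives changed scaling, the filter on low counts, the dispersion, a length and GC trend, the replicate block, each library left out, or the test (DESeq2 1.42.0, limma 3.58.1 voom). Exact permutation tests and Wilson intervals used scipy 1.17.1. Counts are reads, not molecules. Libraries of a group differed beyond counting noise (count chi-square over its degrees of freedom at least 147), which by itself does not show separate animals. By its Xist and Ddx3y counts, GFP-sorted replicate 3 came mostly from another animal than GFP-sorted replicates 1 and 2. Whether replicates 1 and 2 of a group are separate animals is not given. The members, lists, marker genes and rule for named genes (the 7 ligands, the called and lowest-p pathway genes, 3 nearest patterns per ligand, of which 1 is not reported here, flanking genes) were chosen with earlier results of these data known.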

Additional observations from a re-analysis of the deposited data

How the results depend on the processing

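Ereg was called lower in all 19 other settings, Epgn higher in 15 of 19, Areg in 5, Hbegf in 2, Tgfa in 1, and Btc and Egf in none. Leaving mitochondrial, haemoglobin and hair keratin genes out of library sizes gave the main values for every ligand. That setting was therefore no separate check. Title numbers join GFP-sorted and bulk replicates 1 and 2, but the labels do not say what the number marks. Differences between replicates 1 and 2 correlated across genes between the groups (Pearson r = 0.474, genes not being independent). Both differences also varied with transcript length in the same direction. Spearman rho for replicate 1 over replicate 2 was -0.47 in the sorted and -0.399 in the bulk group. The part of length in r was not tested. With the number as a replicate block, a fit on 2 pairs with 1 residual degree of freedom, 6692 genes were called (3652 lower, 3040 higher) and 4 ligands, 3 of them higher, Areg (log2 change 0.66) and Hbegf (0.47) being added. With that block plus removal of the trend of all genes on length and GC, 8193 genes were called (2160 lower, 6033 higher) and 5 ligands, 4 of them higher, with Areg at 0.70, Hbegf at 0.66 and Tgfa at 0.45, while Btc turned to 0.045. With the block and a robust trend from genes of mean log2 CPM of at least 3, 5190 genes were called (3720 lower, 1470 higher) and 2 ligands, Epgn and Ereg, with Areg at 0.15 (edgeR adjusted p = 0.385) and Hbegf at 0.32 (0.0704). In these 3 settings with the block, the 58 pathway genes tested held 9, 28 and 7 called higher and 11, 6 and 11 called lower. The 11 stress genes held 6, 7 and 1 called higher, and the 7 basal genes 4, 7 and 6 called higher. Of all genes tested in these settings (18583, 18107 and 18107), 3040, 6033 and 1470 were called higher and 3652, 2160 and 3720 lower. This robust trend, chosen after seeing the data, gave without the block 50 genes higher, 1 ligand called and 0 higher, and Epgn at 1.23. The trend of all genes alone gave 350 genes higher, 2 ligands higher and Areg at 0.85. It moved the median of all genes to 0.25, relative to which Epgn was at 1.45 and Areg at 0.59. Library size alone moved that median to -0.07 and gave 10 genes higher and Tgfa at -0.011. With no filter on low counts 1918 genes were called (1660 lower, 258 higher) and 2 ligands higher, Areg at 0.77. The DESeq2 Wald test called 1499 genes (188 higher) and 2 ligands higher, Areg at 0.77. The cause of these shifts was not tested. Leaving out each library in turn gave 480 to 1205 genes called, 479 to 1109 lower and 1 to 96 higher, 1 to 2 ligands called and 0 to 1 higher. Epgn then ran from 1.44 (without bulk replicate 1) to 1.91 (without bulk replicate 2), and Btc from -1.05 to 0.47. The groups did not overlap in any of the 6 ratios of ligands. Leaving out any 1 library or using the number as a block could therefore not change the sign of a difference. With a count of 5 added, none changed sign. Egf had the fewest counts of the ligands, 27 to 79 a library.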

Other observations

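Replicate spread differed between the ligands. The coefficient of variation of CPM was 26.9% for Epgn and 6.62% for Hbegf in sorted libraries, and 23.8% for Epgn and 10.6% for Hbegf in bulk libraries. Ratios of libraries varied with transcript length across the 9057 genes of mean log2 CPM of at least 3 that have a length, with Spearman rho from -0.621 (GFP-sorted replicate 1 over GFP-sorted replicate 3) to 0.2 (GFP-sorted replicate 3 over bulk replicate 1), genes not being independent replicates. The transcripts of Epgn and Areg are 1760 and 1215 bases long, and that of Ereg is 4128 bases long.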
